A study of Mus musculus with 11 samples.

Results

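The NF-kB family and its regulators are described here through 10 mouse genes: the 5 subunit genes Nfkb1, Nfkb2, Rel, Rela and Relb, the inhibitor genes Nfkbia and Nfkbie, the brake Tnfaip3, and the adaptor and survival genes Traf1 and Birc3. They are 10 of 22208 protein-coding genes, and a peak was assigned to a gene when its position lay in the gene or within 20 kb of it on mm9. By this rule 297 of 162711 library peaks and 99 of 47808 peaks of the group lists belonged to the 10 genes. The rule is one of distance and does not show that a peak acts on the gene. The values are ChIP-seq peaks, places where DNA recovered with an antibody piles up over input. Every library was made from B cells purified from the spleen of B1-8i mice, a 129-strain line with a targeted antibody gene against the hapten NP. The animals' age was not given in the sources used here. NP-Ficoll, CD40L, IL-2, IL-4 and IL-5 were in all cultures. Cells were collected at day 3, after differentiation to plasma cells, or at day 1, when activated but not yet differentiated. An anti-Irf4 antibody gave 3 libraries per day and an anti-PU.1 antibody 2 per day. The labels do not say that replicates were separate animals or cultures, so the spread between them may be technical, and they also name the cells resting mature B cells although both days were stimulated.

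The IRF4 lists held 2784, 1408 and 5595 peaks at day 3 (replicates 1, 2 and 3) and 825, 9326 and 8929 at day 1. The PU.1 lists held 34410 and 34061 peaks at day 3 and 27321 and 38052 at day 1. The lowest fold enrichment listed was 15.0 to 16.9 in IRF4 libraries of day 3 and 20.9 to 21.9 in those of day 1. The day 3 lists thus run to lower listed values, and what this does to the calls was not tested. The authors also deposited 1 list per factor and day, the group list, whose lines are copies of library lines. Both PU.1 group lists stem from replicate 1 alone. In this and the other lists the read depth behind a peak is unknown. A pair of libraries stood apart: of the regions in the top 10% of every other library of their factor, PU.1 day 3 replicate 1 lacked 15.8% (363 of 2301) and IRF4 day 3 replicate 3 lacked 17.8% (8 of 45), against 0% to 5.26% in the other 8 libraries. Of regions in the top 50% of every other library, these 2 lacked 20.3% (2232 of 10985) and 19.1% (39 of 204), while IRF4 day 1 replicate 1, the shortest list, lacked 29% (87 of 300) and the other 7 libraries 2.24% to 8.91%. Some main counts that rest on the pair are given with and without them, and others with them only. The PU.1 day 3 group list comes wholly from PU.1 day 3 replicate 1. In the group lists, an IRF4 peak lay at 3 of 7 B cell, 1 of 7 T cell and 1 of 7 myeloid marker genes at day 3 (8.47% of all genes), and at 6, 1 and 2 of them at day 1 (10% of all genes). A PU.1 peak lay at 7, 6 and 4 of them on each day (54.4% of all genes at day 3 and 52.3% at day 1). A peak near a gene is not its expression.

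NF-kB proteins are dimers of the 5 subunits and bind kappa B sites in DNA. In resting cells IkB proteins hold them in the cytoplasm. In the canonical pathway, signals from the antigen receptor or from CD40 lead to the destruction of IkB proteins and release dimers of p50 (from Nfkb1) with RelA or c-Rel (from Rel). In the alternative pathway, which CD40 also triggers, p100 (from Nfkb2) is processed to p52, which pairs with RelB. Nfkbia, Nfkbie, Tnfaip3, Traf1 and Birc3 are themselves NF-kB target genes, so the first 3 act as feedback brakes. IRF4 is a transcription factor that activated B cells and plasma cells need, and Irf4 is itself a target of c-Rel. IRF4 binds DNA weakly on its own and often beside PU.1, an Ets-family factor.

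The bases under the IRF4 regions named below show which known elements were at hand. A region is a set of peak positions less than 200 bp apart, merged over the libraries of a factor. A PU.1 peak was counted at an IRF4 region only when it lay less than 200 bp from an IRF4 position of that region. Each sequence lies around the region's centre. All are from the mm9 reference (NCBIM37) and are printed 5′ to 3′ on the minus strand, the strand of these genes. Capitals mark a motif, as its reverse complement where it lies on the plus strand. The motifs were the Ets-IRF composite element (EICE: GGAA, any 2 bases, GAAA), the interferon-stimulated response element (ISRE: GAAA, any 2 bases, GAAA), the AP-1 site (TGANTCA), the AP-1-IRF composite element (AICE), a PU.1 site (GAGGAAGT) and the kappa B site. Both strands of the 201 bp around a region's centre were searched. An AICE contains an AP-1 site, and an EICE can overlap a PU.1 site. The regions with the widest IRF4 calls come first.
Nfkb1, 25.7 kb downstream of the start (chr3:135328760-135328860, minus strand): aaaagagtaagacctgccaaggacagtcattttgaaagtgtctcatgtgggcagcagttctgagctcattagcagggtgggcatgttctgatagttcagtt
Nfkb1, 62.6 kb downstream (chr3:135291907-135292007, minus strand): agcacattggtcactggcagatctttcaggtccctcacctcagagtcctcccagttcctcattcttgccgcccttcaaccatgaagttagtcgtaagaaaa
Traf1, 15.6 kb upstream, with an AP-1 site (chr2:34832866-34832966, minus strand): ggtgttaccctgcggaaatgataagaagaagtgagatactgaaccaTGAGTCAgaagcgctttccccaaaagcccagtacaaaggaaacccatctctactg
Traf1, 1.9 kb upstream (chr2:34819161-34819261, minus strand): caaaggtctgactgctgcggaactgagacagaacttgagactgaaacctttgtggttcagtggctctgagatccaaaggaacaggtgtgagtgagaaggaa
The next 3 regions hold an element in which an IRF site is paired with an Ets site or a further IRF site.
Rel, 17.6 kb downstream, with an EICE (chr11:23653237-23653437, minus strand): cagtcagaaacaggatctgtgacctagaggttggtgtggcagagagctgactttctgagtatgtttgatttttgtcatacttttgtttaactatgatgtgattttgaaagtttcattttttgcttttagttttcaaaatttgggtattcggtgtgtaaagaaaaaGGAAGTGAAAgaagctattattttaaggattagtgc
Rel, 8.0 kb upstream, with an EICE (chr11:23678889-23678989, minus strand): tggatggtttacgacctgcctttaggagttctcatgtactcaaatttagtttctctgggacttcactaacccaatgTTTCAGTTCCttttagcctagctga
Nfkbia, 5.6 kb downstream, with an ISRE (chr12:56587924-56588124, minus strand): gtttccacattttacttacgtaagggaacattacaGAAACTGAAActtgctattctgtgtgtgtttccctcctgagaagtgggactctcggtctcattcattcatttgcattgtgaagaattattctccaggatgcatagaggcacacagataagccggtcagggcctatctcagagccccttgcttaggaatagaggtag
The next 3 were called on 1 day only, with a kappa B site at the brake gene and the inhibitor gene and a PU.1 site at the survival gene.
Tnfaip3, 6.2 kb downstream, with a kappa B site (chr10:18729198-18729298, minus strand): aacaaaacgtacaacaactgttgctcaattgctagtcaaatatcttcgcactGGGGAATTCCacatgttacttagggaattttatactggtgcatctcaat
Nfkbia, the 150 bp upstream of the start, with a kappa B site (chr12:56593635-56593784, minus strand): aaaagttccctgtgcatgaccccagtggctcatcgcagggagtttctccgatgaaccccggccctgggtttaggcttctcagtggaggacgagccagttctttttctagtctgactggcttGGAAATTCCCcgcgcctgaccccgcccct
Birc3, 4.2 kb downstream, with a PU.1 site (chr9:7868926-7869026, minus strand): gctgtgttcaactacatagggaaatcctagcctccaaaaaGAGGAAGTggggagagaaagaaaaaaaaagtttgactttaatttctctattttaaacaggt
The last pair are strong PU.1 regions with an element that IRF4 can also use.
Nfkb1, 83.2 kb downstream, with an EICE and a PU.1 site (chr3:135271219-135271319, minus strand): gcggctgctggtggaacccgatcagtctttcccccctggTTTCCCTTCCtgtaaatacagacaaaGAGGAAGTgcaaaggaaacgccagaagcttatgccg
Relb, 14.1 kb downstream, with an ISRE (chr7:20200657-20200817, minus strand): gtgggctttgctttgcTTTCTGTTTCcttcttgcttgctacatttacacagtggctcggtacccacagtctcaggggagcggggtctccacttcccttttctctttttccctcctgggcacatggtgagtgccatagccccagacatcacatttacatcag

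PU.1 lay at all 10 genes and IRF4 at fewer. In the PU.1 group lists 10 of the 10 genes had a peak at day 3, where 54.4% of all genes had one, and 9 at day 1, where 52.3% had one. The gene without a day 1 listing was Rela. All 10 had a PU.1 peak in each library, where the share of all genes was 65.8% and 63.4% at day 3 and 57% and 65.9% at day 1, and 50.9% of all genes had one in all 4. Without day 3 replicate 1 the count was also 10 in the other 3 libraries, against 53.2%. In the IRF4 group lists 5 of the 10 had a peak at day 3 (8.47% of all genes) and 4 at day 1 (10% of all genes). Nfkb1, Nfkbia and Traf1 were listed on both days (3 genes, against 5.42% of all genes), Rel and Birc3 at day 3 alone and Tnfaip3 at day 1 alone. Nfkb2, Rela and Relb had no IRF4 peak in any of the 6 libraries, and Nfkbie had 3, all in day 1 replicate 2. In all, 7 of the 10 genes had an IRF4 peak in at least 1 library, against 49.8% of all genes. Nfkb1 was the 1 member with an IRF4 peak in all 6 libraries, against 2.01% of all genes. The median length of the 10 genes was 17.4 kb, against 15.5 kb for all genes, and Nfkb1 spans 107 kb.

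**Figure D1:**
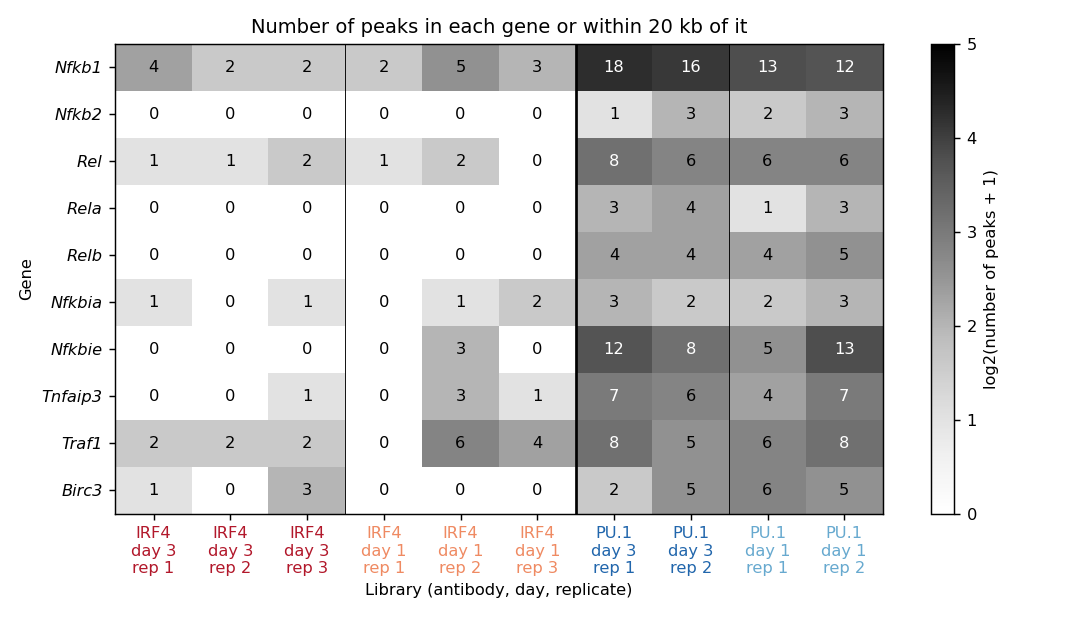
Number of peaks in each of the 10 genes or within 20 kb of it (rows) in each library (columns), shaded by log2(number of peaks + 1). Nfkb1 holds 12 to 18 PU.1 peaks and 2 to 5 IRF4 peaks per library, and Nfkb2, Rela and Relb hold 0 IRF4 peaks in every library.

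Nfkb1 (chr3:135247619-135354511, minus strand), the gene of p105 and p50, had the widest IRF4 calls. It held 4, 2 and 2 IRF4 peaks in the day 3 libraries and 2, 5 and 3 in the day 1 libraries, and the counts of the days overlapped. An intronic region 25.7 kb downstream of the start (135328518-135329382) was called in every IRF4 library. Its fold enrichment in the authors' lists was 59.9, 32.6 and 57.6 at day 3 and 30.8, 107 and 76.7 at day 1. It ranked 130, 304 and 256 in the day 3 lists and 317, 90 and 243 in the day 1 lists, which differ in length. None of the PU.1 libraries had a peak within 200 bp of its IRF4 positions, and none of the 6 motifs was found in its window. PU.1 day 3 replicate 1 alone had a peak inside the printed bounds, 25.2 kb downstream, at 35.9. The IRF4 region lay 1.95 kb from the start of a shorter annotated Nfkb1 transcript.

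A further intronic region of Nfkb1, 62.6 kb downstream (135291665-135292402), carried both factors. IRF4 was called there with enrichments of 49.2 and 41.3 in day 3 replicates 1 and 2 and of 45.0, 94.8 and 98.5 at day 1. The library without a call was day 3 replicate 3, which lacked 17.8% of the regions in the top 10% of every other IRF4 library. The region was thus in all of the other 5 libraries, and why this call is missing was not tested. PU.1 was called with enrichments of 638 and 777 at day 3 and 418 and 941 at day 1. It ranked 317 and 132 in the day 3 lists and 298 and 51 in the day 1 lists, the highest mean place of any PU.1 region at the 10 genes. No motif was found there either, which says only that these letters were not in the window. The third IRF4 region of Nfkb1 lay 8.5 kb upstream and was called in 1 day 3 library (17.5) and 2 day 1 libraries (64.7 and 37.7). It had no PU.1 peak within 200 bp of its IRF4 positions. A PU.1 region 8.1 kb upstream overlapped its bounds, at 28.5 in day 3 replicate 1 and at 17.2 and 26.2 at day 1.

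PU.1 peaks were spread over the whole of Nfkb1, with 18 and 16 at day 3 and 13 and 12 at day 1. They merged into 24 regions, of which 6 were called in all 4 libraries. The strongest after the shared region lay 83.2 kb downstream, 0.035 kb from the start of a shorter annotated transcript, with enrichments of 518 and 321 at day 3 and 266 and 397 at day 1. It held an EICE and a PU.1 site 18.5 bp from its centre, and IRF4 was called there in day 1 replicate 2 alone (28.7). At the main start, a region 0.071 kb downstream in an untranslated exon had enrichments of 154 and 56.0 at day 3 and 36.7 and 76.1 at day 1. It held the kappa B site GGGAATTTCC and no IRF4 peak. The remaining 3 lay 0.852, 61.4 and 97.1 kb downstream. Of the 10 genes, Nfkb1 also had 4 of the 5 PU.1 regions called in both day 3 libraries and no day 1 library, with enrichments between 15.2 and 51.2.

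**Figure D2:**
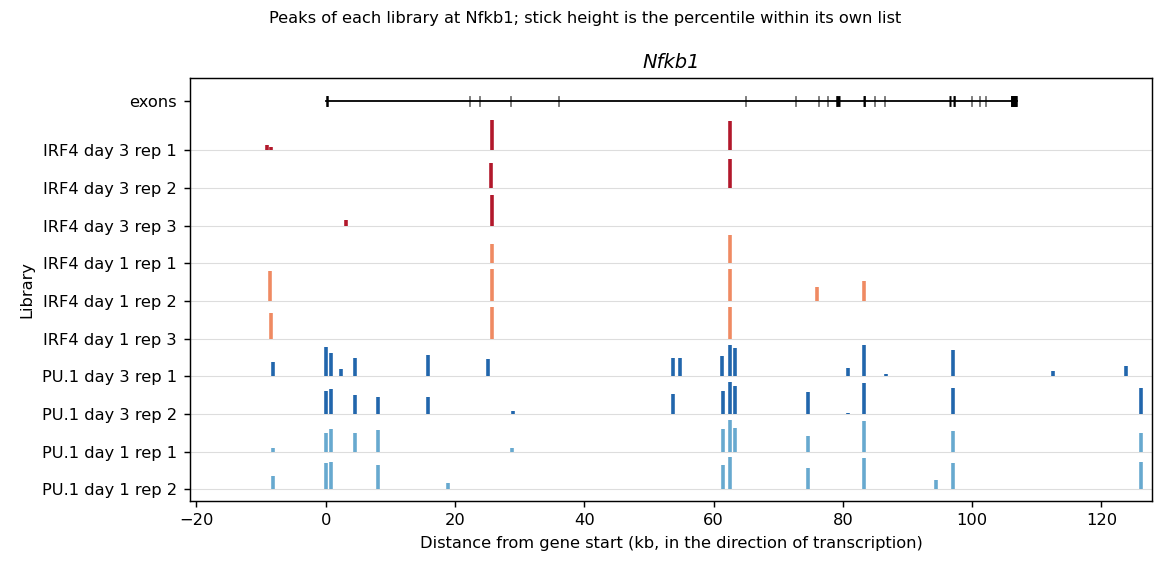
Peaks of each library along Nfkb1, by distance from the gene start in kb in the direction of transcription, with the exons on top. Stick height is the peak's percentile within its own list. The IRF4 region at 25.7 kb stands in all 6 IRF4 libraries, with no PU.1 peak within 200 bp of its IRF4 positions. The nearest PU.1 stick, at 25.2 kb, is in day 3 replicate 1 alone. The region at 62.6 kb stands in 5 IRF4 and all 4 PU.1 libraries.

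Rel (chr11:23641514-23670970, minus strand) encodes c-Rel, the canonical subunit most tied to lymphocyte activation. It held 1, 1 and 2 IRF4 peaks at day 3 and 1, 2 and 0 at day 1. They fell into 4 regions, and PU.1 was called in all 4 of its libraries at each of them. Of these, 2 were in 1 IRF4 library each, low in its list. The region 1.25 kb downstream ranked 4552 of 5595 in day 3 replicate 3 (16.2). The region 0.469 kb upstream ranked 9212 of 9326 in day 1 replicate 2 (20.9). In the region 17.6 kb downstream, IRF4 enrichment was 22.8 and 48.7 in day 3 replicates 2 and 3 and 30.8 in day 1 replicate 2, which leaves 1 library per day without day 3 replicate 3. Its EICE, GGAAGTGAAA on the gene's strand, lay 69.5 bp from the IRF4 centre and 30.5 bp from the PU.1 centre. PU.1 enrichment there was 146 and 49.3 at day 3 and 57.2 and 15.5 at day 1. In the region 8.0 kb upstream, IRF4 was called in replicate 1 of each day, at 35.8 for day 3 and 24.3 for day 1, so it is in no group list. Its EICE lay 30.5 bp from the IRF4 centre and 4.5 bp from the PU.1 centre, and PU.1 enrichment was 141 and 198 at day 3 and 115 and 140.1 at day 1. These were the only members' IRF4 regions of 2 or more libraries with an EICE. The PU.1 region nearest the start, 0.489 kb upstream, had enrichments of 263 and 78.2 at day 3 and 69.4 and 88.1 at day 1.

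The other 3 subunit genes carried PU.1 without IRF4. Relb (chr7:20191566-20214787, minus strand), the alternative pathway's transactivating subunit, had 4 and 4 PU.1 peaks at day 3 and 4 and 5 at day 1. Its main PU.1 region was intronic, 14.1 kb downstream, with enrichments of 324 and 331 at day 3 and 185 and 408 at day 1. That region held an ISRE, 59.5 bp from its centre, yet no IRF4 library had a peak there. A PU.1 region 0.671 kb downstream, with a PU.1 site, lay 0.017 kb from an annotated start. The Relb window also takes in the start of Clasrp, where a further PU.1 region lay 24.9 kb downstream of Relb's start and 0.041 kb from that of Clasrp.

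Nfkb2 (chr19:46379227-46386580, plus strand), the gene of p100 and p52, had 1 and 3 PU.1 peaks at day 3 and 2 and 3 at day 1. The region in all 4 libraries lay 0.449 kb upstream, with enrichments of 76.4 and 44.3 at day 3 and 20.6 and 63.1 at day 1, weaker in its lists than the main regions of Nfkb1 and Relb. Rela (chr19:5637483-5648130, plus strand), the gene of the p65 subunit, had 3 and 4 PU.1 peaks at day 3 and 1 and 3 at day 1. It was the 1 member without a PU.1 region in all 4 libraries. Its promoter region, 0.81 kb upstream, was called at 60.3 and 45.7 at day 3 and at 47.0 in day 1 replicate 2. Its strongest region lay 23.7 kb downstream in an intron of Sipa1, at 248 and 156 at day 3 and 159.6 in day 1 replicate 2. In day 1 replicate 1 a peak in the same intron was placed at 5661508, too far to merge, at 76.4.

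Nfkbia (chr12:56590398-56593634, minus strand) encodes IkB alpha, the inhibitor that NF-kB rebuilds after each activation. It held 1, 0 and 1 IRF4 peaks at day 3 and 0, 1 and 2 at day 1, in 2 regions that differed in their days. The region at the start, 0.049 kb upstream, was called in day 1 replicates 2 and 3, at 38.7 and 45.6, and in no day 3 library. It held the kappa B site GGGAATTTCC at 56593654-56593663, 24.5 bp from the centre, and PU.1 was absent from it in all 4 libraries. The region 5.6 kb downstream was called at 21.2 and 32.3 in day 3 replicates 1 and 3 and at 28.6 in day 1 replicate 3, again 1 library per day without day 3 replicate 3. It held an ISRE, GAAACTGAAA, with a weak PU.1 call on each day, at 33.1 in day 3 replicate 1 and 15.7 in day 1 replicate 2. Nfkbia's own PU.1 region, 3.79 kb downstream, had modest enrichments of 49.6 and 20.8 at day 3 and 27.4 and 39.0 at day 1.

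Nfkbie (chr17:45692665-45700118, plus strand), the gene of IkB epsilon, which holds c-Rel and RelA dimers in B cells, had 0 IRF4 peaks in 5 libraries and 3 in day 1 replicate 2. It had 12 and 8 PU.1 peaks at day 3 and 5 and 13 at day 1, the widest spread between PU.1 libraries of the 10 genes. Intronic regions 1.18 and 2.64 kb downstream were called in all 4 libraries. The region at 1.18 kb had enrichments of 124 and 110.1 at day 3 and 93.7 and 155 at day 1 and a PU.1 site 6.5 bp from its centre. Its window holds the starts of Slc35b2 and Hsp90ab1, and the other 2 regions of all 4 libraries lay nearer to those starts, at 0.591 and 1.13 kb.

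Tnfaip3 (chr10:18720716-18735463, minus strand) encodes A20, which switches off signalling to NF-kB. Its start carried the PU.1 region with the next highest mean place after the shared Nfkb1 region, 0.266 kb downstream in an untranslated exon. Enrichment there was 769 and 446 at day 3 and 220.0 and 595.5 at day 1, at rank 193 and 650 in the day 3 lists and 1277 and 278 in the day 1 lists. It held the kappa B site GGGGATTTCC, 26.5 bp from the centre, and no IRF4 peak. IRF4 lay instead in an intron 6.2 kb downstream, 0.597 kb from the start of a short annotated transcript, in day 1 replicates 2 and 3 (36.5 and 24.9) and in no day 3 library. Its kappa B site, GGGGAATTCC, lay 6.5 bp from the centre. PU.1 was called beside it once per day, at 22.6 for day 3 and 20.2 for day 1. At 18.3 kb upstream, a PU.1 region of all 4 libraries held an EICE, and IRF4 was called there in day 3 replicate 3 alone (38.7).

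Traf1 (chr2:34797270-34817292, minus strand), an adaptor of TNF receptors including CD40 signalling, had more IRF4 regions in 2 or more libraries than any other member, 4 of 13. It held 2, 2 and 2 IRF4 peaks at day 3 and 0, 6 and 4 at day 1. The 2 upstream regions were called in all 3 day 3 libraries and in day 1 replicates 2 and 3. At 15.6 kb upstream (34832634-34833113) IRF4 enrichment was 35.6, 24.0 and 42.0 at day 3 and 41.0 and 49.7 at day 1. At 1.9 kb upstream (34818831-34819452) it was 22.2, 23.7 and 19.5 at day 3 and 22.1 and 41.1 at day 1. PU.1 was called in all 4 libraries at each. Its enrichment was 311 and 264 at day 3 and 218 and 307 at day 1 at the farther region, and 518 and 393 at day 3 and 299.7 and 399 at day 1 at the nearer one. The library without IRF4 at Traf1, day 1 replicate 1, has the shortest list of the 6. The AP-1 site of the farther region lay 1 bp from the IRF4 centre.

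The other 2 IRF4 regions of Traf1 were intronic, 7.2 and 7.8 kb downstream, and were called in day 1 replicates 2 and 3 and in no day 3 library. Enrichment was 62.4 and 45.9 at 7.2 kb and 53.1 and 43.2 at 7.8 kb. They ranked 552 and 1055, and 830 and 1233, among 9326 and 8929 peaks. With the 825 strongest peaks of each IRF4 library, 0 regions at the 10 genes were in 2 or more day 1 libraries alone. The region at 7.2 kb held an AP-1 site and 1 PU.1 call per day, while that at 7.8 kb had neither.

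Birc3 (chr9:7848699-7873186, minus strand) encodes cIAP2, an inhibitor of apoptosis that binds TRAF proteins. It held 1, 0 and 3 IRF4 peaks at day 3 and 0, 0 and 0 at day 1, and was the 1 member with IRF4 calls confined to day 3 libraries. The region 4.2 kb downstream in an intron was called at 17.3 and 20.5 in day 3 replicates 1 and 3. The call in replicate 1 is below the lowest enrichment of any day 1 list, and that in replicate 3 is too. Enrichments served only to order peaks inside a list, and why no day 1 library lists the region was not tested. Without day 3 replicate 3 the region was left with 1 IRF4 library. PU.1 was strong at the same place, at 569 in day 3 replicate 2 and at 408 and 346 at day 1. It had no peak in PU.1 day 3 replicate 1, the PU.1 library that lacked strong regions elsewhere, and is therefore missing from the PU.1 day 3 group list. A PU.1 site lay 6.5 bp from the IRF4 centre. At the start of Birc3, 0.118 kb downstream, PU.1 enrichment was 259 and 137 at day 3 and 77.8 and 174 at day 1, with a PU.1 site and 2 kappa B sites, GGGGAACTCC and GGGGATTTCC. The Birc3 window also reaches its neighbour Birc2.

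**Figure D3:**
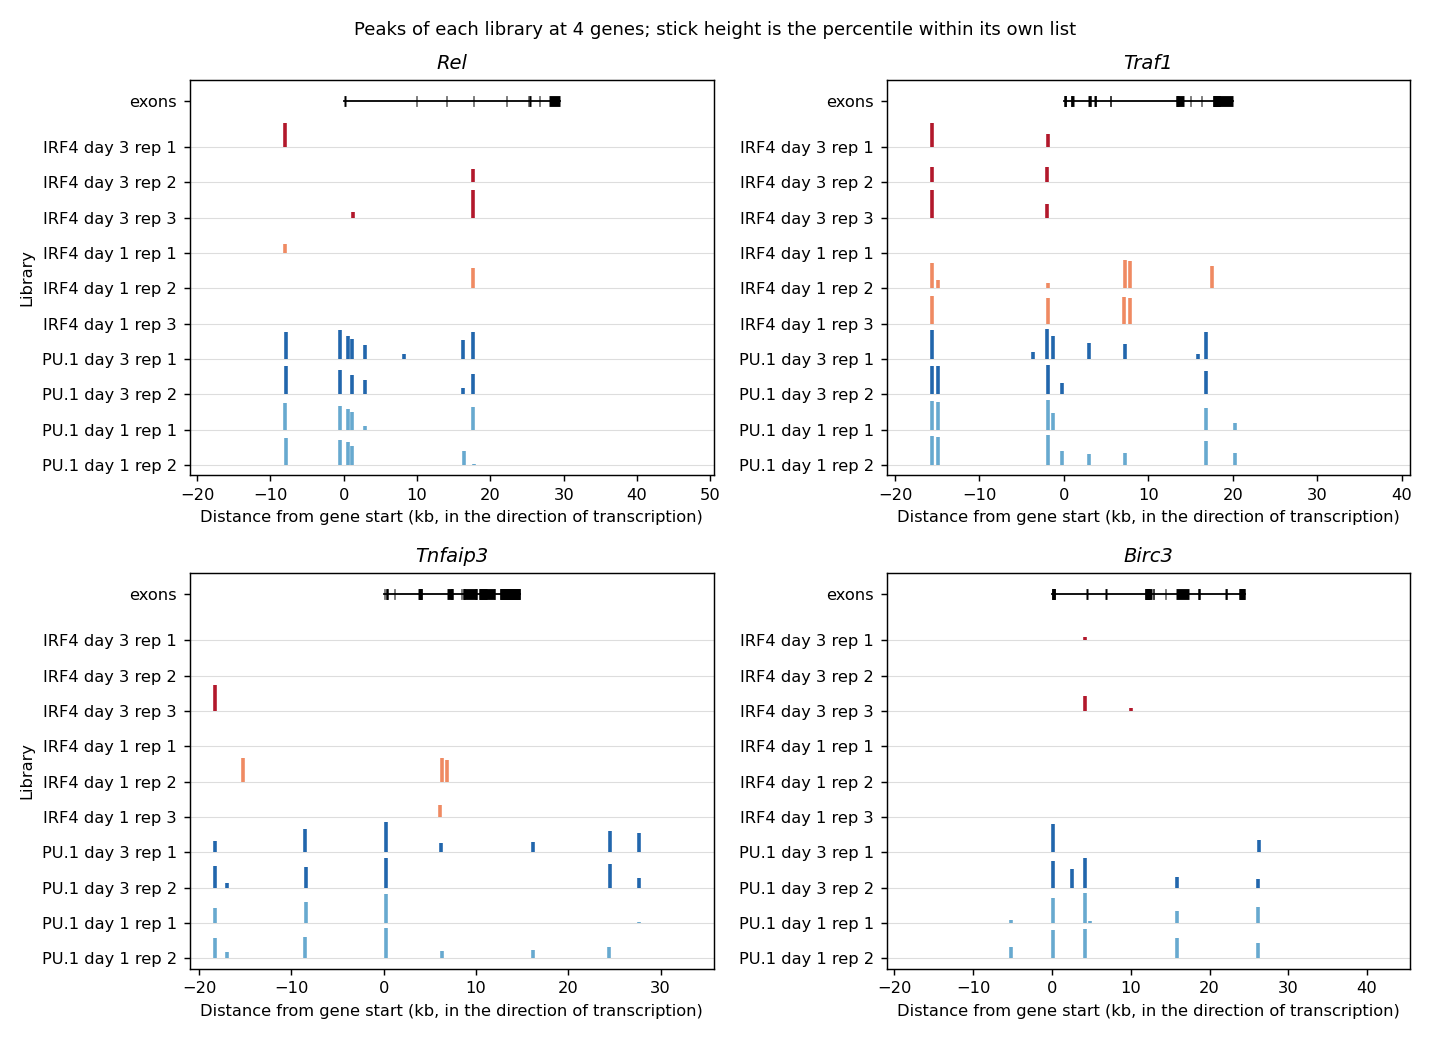
Peaks of each library along Rel, Traf1, Tnfaip3 and Birc3, by distance from the gene start in kb in the direction of transcription, with the exons on top. Stick height is the peak's percentile within its own list. The upstream IRF4 regions of Traf1 stand on PU.1 on both days, its intronic pair is in day 1 libraries alone, and IRF4 at Birc3 is in day 3 libraries alone.

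Over all members, the IRF4 peaks merged into 29 of 20058 regions. Of the 29, 13 were called in 2 or more libraries, where 20.9% of all regions were, and 4 in 5 or 6 libraries, where 3.75% were. The other 16 were in 1 library, against 79.1%. Without IRF4 day 3 replicate 3, 12 of 24 regions were in 2 or more of the other 5 libraries, against 20.3%, and 2 were in all 5, against 2.24%. The PU.1 peaks merged into 93 of 57563 regions, of which 27 were in all 4 libraries, against 24.7%, a share near that of all regions, and 23 in a single library, against 36.8%. Without PU.1 day 3 replicate 1, 35 of 82 were in all of the other 3 libraries, against 39%. Of the 13 IRF4 regions, 5 had PU.1 in all 4 libraries, 4 in some and 4 in none, against 46.4%, 26.5% and 27.0% of the 4189 such regions of the genome. Of the 16 regions of a single library, 6 lay on PU.1 in all 4 libraries and 8 had none, against 10.7% and 74.9%. A PU.1 peak lay within 1 kb of an annotated start in all 4 libraries at 6 members, Nfkb1, Nfkb2, Rel, Relb, Tnfaip3 and Birc3, against 13.7% of genes. An IRF4 peak lay there in 2 or more libraries at 2 members, Nfkbia and Tnfaip3, against 2.68% of genes. The limit of 1 kb was chosen after the values were seen.

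**Figure D4:**
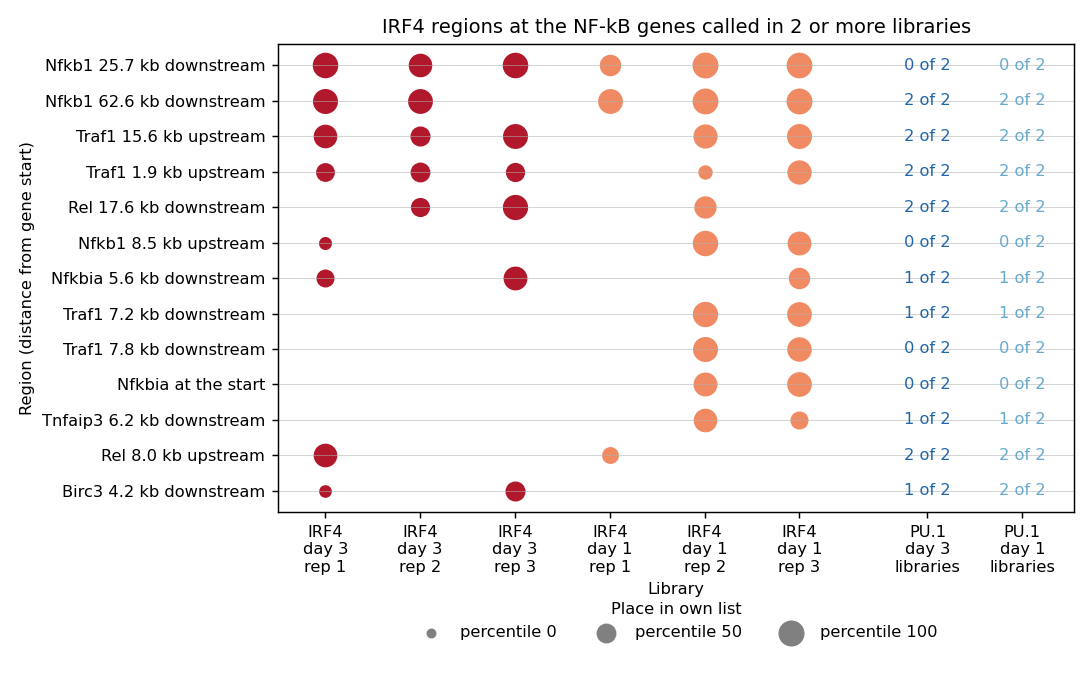
The 13 IRF4 regions at the 10 genes called in 2 or more libraries (rows, with the distance from the gene start) in the 6 IRF4 libraries, with point size giving the peak's percentile within its own list. The right columns give the number of PU.1 libraries with a peak there, at day 3 and at day 1. Nfkb1 at 25.7 kb is the 1 region in all 6 libraries, 4 regions are in day 1 libraries alone and 1, at Birc3, in day 3 libraries alone.

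Kappa B sites, which NF-kB dimers bind, were found in 0 of the 7 members' peaks of the IRF4 day 3 group list (3.82% of that list) and in 2 of 9 at day 1 (5.77%), at Nfkbia and Tnfaip3. In the PU.1 group lists they were in 6 of 44 peaks at day 3 (3.49%) and 5 of 39 at day 1 (3.59%). Among the PU.1 regions of all 4 libraries they were in 5 of 27, against 3.56%, at the starts of Nfkb1, Tnfaip3, Birc3 and Rel and downstream of Nfkbia. The EICE was in 1 of 7 IRF4 peaks at day 3 (30%) and 0 of 9 at day 1 (22%), and in 5 of 44 PU.1 peaks at day 3 (13.5%) and 5 of 39 at day 1 (14.4%). AP-1 sites were in 1 of 7 IRF4 peaks at day 3 (21.6%) and 2 of 9 at day 1 (29.8%), all at Traf1, and in 2 of 44 PU.1 peaks at day 3 (7.77%) and 3 of 39 at day 1 (8.5%). The ISRE was in 1 of 7 IRF4 peaks at day 3 (12.8%) and 0 of 9 at day 1 (7.53%), and in 2 of 44 PU.1 peaks at day 3 (5.72%) and 2 of 39 at day 1 (5.75%). The PU.1 site was in 1 of 7 IRF4 peaks at day 3 (13.2%) and 0 of 9 at day 1 (9.09%), and in 7 of 44 PU.1 peaks at day 3 (24.2%) and 8 of 39 at day 1 (26.9%). In the list of PU.1 day 3 replicate 2, which sets aside replicate 1, kappa B sites were in 10 of 59 members' peaks (3.03% of that list), the EICE in 7 (13.2%), AP-1 sites in 4 (7.63%), the ISRE in 3 (5.82%), the PU.1 site in 10 (24.6%) and the AICE in 0 (0.258%). The AICE was in none of the members' group-list peaks, against 1.88% and 2.68% of the IRF4 lists and 0.276% and 0.31% of the PU.1 lists of day 3 and day 1.

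Among the 13 IRF4 regions of 2 or more libraries, an EICE was in 2 (22.8% of all such regions), an AP-1 site in 2 (25.9%), a kappa B site in 2 (4.58%), an ISRE in 1 (10.6%), a PU.1 site in 1 (10.5%) and an AICE in 0 (2.43%). Among the 27 PU.1 regions, an EICE was in 5 (15.3%), a PU.1 site in 6 (26.9%), an AP-1 site in 2 (8.36%), an ISRE in 1 (6.02%) and an AICE in 0 (0.289%). Any of the 6 motifs was present in 8 of the 13, against 60.7%, and in 17 of the 27, against 50.3%. A match describes the bases and is not a test of binding.

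With the lists as deposited, the libraries of the days overlapped in every total over the 10 genes. IRF4 peaks at the 10 genes numbered 9, 5 and 11 at day 3 (8.33 ± 3.06, SD, n = 3) and 3, 20 and 10 at day 1 (11 ± 8.54, SD, n = 3), a difference of -2.67 (exact permutation p = 0.8, adjusted over 7 tests 0.933). As a share of each list they were 3.23, 3.55 and 1.97 per 1000 peaks at day 3 and 3.64, 2.14 and 1.12 at day 1, a difference of 0.616 (exact permutation p = 0.7, adjusted 0.933). PU.1 peaks numbered 66 and 59 at day 3 (62.5 ± 4.95, SD, n = 2) and 49 and 65 at day 1 (57 ± 11.3, SD, n = 2), a difference of 5.5 (exact permutation p = 0.667, adjusted 0.933). Per 1000 peaks they were 1.92 and 1.73 at day 3 and 1.79 and 1.71 at day 1, a difference of 0.0743 (exact permutation p = 0.667, adjusted 0.933). Without PU.1 day 3 replicate 1 the difference in peaks was 2 and that per 1000 peaks turned to -0.0187. Member genes with an IRF4 peak numbered 5, 3 and 6 at day 3, where 11.6%, 6.43% and 21.2% of all genes had one, and 2, 6 and 4 at day 1, where 3.65%, 31.1% and 30.3% had one. They differed by 0.667 (exact permutation p = 0.8, adjusted 0.933), and 10 of 10 had PU.1 in every library (difference 0, exact permutation p = 1). Without IRF4 day 3 replicate 3 the IRF4 differences were -4 peaks, 1.09 per 1000 peaks and 0 genes. All tests were two-sided. With 3 against 3 libraries p cannot go below 0.1, and with 2 against 2 not below 0.333, so no difference could have passed 0.05, and these p-values do not show that the days are alike.

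The share of members' IRF4 peaks on a PU.1 peak of the same day's group list was 44.4%, 80% and 54.5% at day 3 (4 of 9, 4 of 5 and 6 of 11 peaks) and 66.7%, 40% and 30% at day 1 (2 of 3, 8 of 20 and 3 of 10 peaks). Over all peaks of the same libraries it was 56.2%, 66.0% and 41.3% at day 3 and 77.7%, 26.4% and 24.8% at day 1. The means of 59.7% ± 18.3 at day 3 and 45.6% ± 19.0 at day 1 (SD, n = 3 each) differed by 14.1 percentage points (exact permutation p = 0.4, adjusted 0.933). With the full list of PU.1 replicate 2 of the day as the partner, which sets aside PU.1 day 3 replicate 1, the difference was 9.18 points.

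With the 825 strongest peaks of each IRF4 library, the length of the shortest list, the days did not overlap in 2 of these measures. Member genes with an IRF4 peak then numbered 3, 3 and 4 at day 3, where 3.71%, 3.89% and 3.88% of all genes had one, and 2, 2 and 1 at day 1, where 3.65%, 3.7% and 3.8% had one. The difference was 1.67 genes (exact permutation p = 0.1, the smallest possible). The share of members' IRF4 peaks on PU.1 was 75%, 80% and 75% at day 3 and 66.7%, 25% and 50% at day 1, a difference of 29.4 percentage points (exact permutation p = 0.1, the smallest possible). These shares rest on 4, 5 and 4 peaks at day 3 and 3, 4 and 2 at day 1. Over all 825 peaks the share was 63.9%, 69.9% and 65.3% at day 3 and 77.7%, 59.8% and 62.8% at day 1, where the days overlapped. IRF4 peaks at the 10 genes then differed by 1.33 (exact permutation p = 0.3), with more at day 3, the opposite direction to the full lists.

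**Figure D5:**
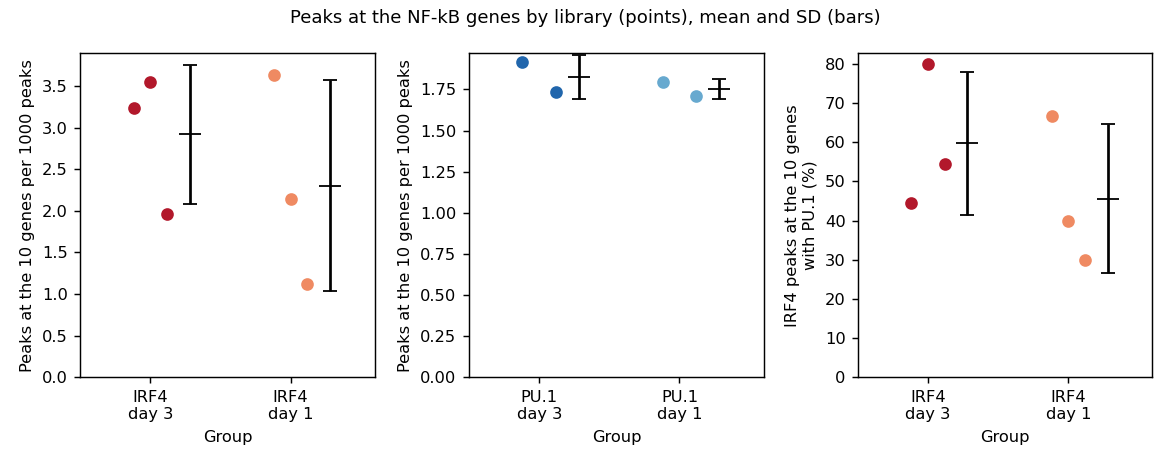
Values of each library at day 3 and day 1 (points), with the mean and SD beside them (bars). The left panel gives IRF4 peaks at the 10 genes per 1000 peaks and the middle panel PU.1 peaks at the 10 genes per 1000 peaks. The right panel gives the percent of members' IRF4 peaks with a PU.1 peak of the same day. The days overlap in every panel. The PU.1 means of 1.83 and 1.75 differ by less than the SD at day 3 (0.131) and by more than that at day 1 (0.0603).

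Of the 13 IRF4 regions in 2 or more libraries, 5 were called on 1 day alone. Of all 4189 such regions of the genome, 396 were in day 3 libraries alone and 838 in day 1 libraries alone. The IRF4 percentages below are of all 20058 IRF4 regions, most of which were called in 1 library. At day 3, 1 region was in 2 or more libraries with 0 at day 1, at Birc3 (1.97% of all regions). At day 1, 4 regions were in 2 or more libraries with 0 at day 3: the pair in Traf1, the start of Nfkbia and the intron of Tnfaip3 (4.18% of all regions). All 4 rest on day 1 replicates 2 and 3, whose lists are the longest, and the count was 0 without either of them. With the 825 strongest peaks of each library, 2 regions were in 2 or more day 3 libraries alone and 0 in 2 or more day 1 libraries alone, so these counts differ with list length. The share of all IRF4 regions was not computed for these shortened lists, so the 2 counts cannot be set against the genome. Of PU.1 regions, 5 were in both day 3 libraries and no day 1 library (4 in Nfkb1 and 1 by Rela, in an intron of Sipa1; 3.78% of all PU.1 regions), and 2 in both day 1 libraries and no day 3 library (by Traf1, 20.3 kb downstream, and by Birc3, 5.17 kb upstream; 2.38% of all). With the 27321 strongest peaks of each PU.1 library these counts were 2 for day 3 (3.5% of all regions) and 2 for day 1 (3.15%).

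Of 23 other genes of the pathway, 4 had an IRF4 group-list peak at day 3 and 5 at day 1, and 20 had a PU.1 peak on each day and in all 4 libraries. Of all genes, 54.4% had a PU.1 group-list peak at day 3 and 52.3% at day 1, and 50.9% had a PU.1 peak in all 4 libraries. Of the 8 with IRF4 on either day, 5 are described here. Of these 5, Nfkbid is an atypical IkB protein of the nucleus, and the other 4 code for an adaptor, kinases and a ubiquitin ligase that act upstream of the NF-kB dimers. Map3k14, the kinase NIK that starts the alternative pathway, had 3 intronic day 1 regions, 2 of them in 2 day 1 libraries and 0 at day 3.

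Traf5, an adaptor of CD40, had an intronic region 2.56 kb downstream in 2 day 3 libraries and 0 at day 1, on PU.1. Chuk, the kinase IKK alpha, counted through 2 day 3 regions that lay in its neighbours Erlin1 and Cwf19l1, each in 2 day 3 libraries and 1 day 1 library. Nfkbid had a region 0.54 kb downstream in 0 day 3 and 2 day 1 libraries, on PU.1 in all 4 libraries. Rnf31, the catalytic part of the linear ubiquitin ligase, had one 0.841 kb upstream, in a coding exon of Psme2, in 0 day 3 and 2 day 1 libraries. Cd40 itself had PU.1 and no group-list IRF4 peak. The shares of all genes given above, 8.47% at day 3 and 10% at day 1 for IRF4, are the background of these counts.

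By the strongest peak of a gene in each library, as a percentile of its list over the 10 libraries, the genes closest to Nfkb1 were Tcf4, Hpse and Wdfy4. Their mean absolute difference from Nfkb1 was 1.35, 1.39 and 1.39 percentile points. Nfkb1 itself stood at 95.4, 88.9 and 95.4 in the IRF4 day 3 libraries and 89.1, 99.0 and 98.8 at day 1, and at 99.1 and 99.6 in the PU.1 day 3 libraries and 98.9 and 99.9 at day 1. It was the 1 member with such a place in every library.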

How the data were processed

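ChIP-seq peak lists of IRF4 and PU.1 at day 3 and day 1 were analysed. Per the series' design text and the submitters' processing notes, reads were mapped to mm9 and enrichment over input was computed with QuEST. The sources used here name neither QuEST's version and thresholds nor the aligner. Each peak carries the authors' deposited fold enrichment over input (a linear ratio), which served here to order peaks inside 1 list and was never compared across lists in a test. Peaks were called per library. In the IRF4 group lists, 1772 and 192 lines match replicates 1 and 2 at day 3, and 767 and 1729 match replicates 1 and 2 at day 1. Repeated lines (5 in the PU.1 day 3 and 7 in the day 1 group list) were counted once. The lists hold no read counts, so depth is unknown. Input was not used here.

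Replicates carry the number of the sample descriptions. Title numbers differ, and the titles of PU.1 day 3 replicate 1 and IRF4 day 3 replicate 3 carry a pair of numbers. Genes came from GENCODE M1 (mm9, autosomes and X). Peaks within 200 bp were merged into regions. Peak positions stand as deposited, with their counting base unknown. Coordinates of motifs and sequences are 1-based. Days were compared by exact permutation tests over libraries, Benjamini-Hochberg adjusted over 7 tests. Named were all members, regions in an IRF4 group list or in 2 or more IRF4 libraries, the PU.1 region of each member in most libraries (further PU.1 regions and IRF4 regions of 1 library were chosen after their values were seen), pathway genes with an IRF4 group-list peak (3 of these 8 are not reported here), and the 3 genes most like any member with IRF4 in all 6 libraries. The members and lists were chosen with earlier results of these data known. Alternatives were 5 kb and 50 kb windows, the stronger 50% of each list, equal numbers of peaks, merging at 100 and 500 bp, each library left out, and the replicate block. Added after seeing the data were crossed replicate numbers, PU.1 replicate 2 as the partner list, counts without the pair of libraries that lacked strong regions, motifs in the PU.1 day 3 replicate 2 list, and PU.1 regions of 1 day with equal numbers of peaks. Code was tested on simulated data. Python 3.11.15, numpy 2.4.6, pandas 2.3.3, scipy 1.17.1, pysam 0.24.0 and matplotlib 3.10.9 were used.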

Additional observations from a re-analysis of the deposited data

How the results depend on the processing

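Of 125 recomputed values, 14 were counts that moved by more than 1.5 times and 6 were differences that reversed. The other 105 were counts within 1.5 times or differences that did not reverse. A difference of 0 was not taken as a reversal, and no difference could pass p under 0.05 in any setting. The 105 therefore do not show that the differences kept their size. The 1 day 3-only IRF4 region became 2 with 50 kb windows, 2 with equal numbers of peaks, 2 with merging at 100 bp and 0 with the stronger 50% of each list, and ranged from 0 to 2 with a library left out. It was 0 without IRF4 day 3 replicate 1 or 3 and 2 without day 1 replicate 2 or 3. The 4 day 1-only regions became 0 with equal numbers of peaks and ranged from 0 to 5 with a library left out, with 0 without day 1 replicate 2 or 3. For these region counts the share of all IRF4 regions was not recomputed. Of the genes with a group-list peak, the 5 members of IRF4 day 3 became 2 with the stronger 50%, and the 5 pathway genes of IRF4 day 1 became 8 with 50 kb and 3 with the stronger 50%. The IRF4 difference per 1000 peaks reversed to -0.194 with the stronger 50% and ranged from 0.0262 to 1.28 with a library left out. The difference in IRF4 peaks reversed to 1.33 with equal numbers of peaks and ranged from -6.67 to 1.83, the highest without day 1 replicate 2. The difference in genes with IRF4 ranged from -0.333 (without day 1 replicate 1) to 1.67, that in PU.1 peaks from -2.5 (without day 1 replicate 1) to 13.5, that in PU.1 peaks per 1000 from -0.0187 (without day 3 replicate 1) to 0.167, and that in the PU.1 share from 3.94 to 24.7 percentage points. With equal numbers of peaks the PU.1 share differed by 29.4 points and genes with IRF4 by 1.67. The difference in genes with PU.1 was 0.5 with 5 kb windows, 0.5 with the stronger 50% and 0 in the other settings run. The causes were not tested.

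With the replicate block, an exact sign-flip test of same-numbered pairs, the IRF4 peak difference was -2.67 (exact p = 1, 3 pairs, smallest possible 0.25) and that per 1000 peaks 0.616 (exact p = 0.5). Same-numbered IRF4 libraries deviated from their group means with correlations over genes of -0.000242, -0.26 and 0.302. Different-numbered IRF4 libraries gave values from -0.336 to 0.296. For PU.1 the value was -0.117 with the same number and 0.117 with different numbers, equal in size because each day has 2 libraries. Deviations from a mean of so few libraries depend on each other, so these values cannot settle whether the numbers pair the libraries. With crossed PU.1 numbers, 0 calls passed p under 0.05, as with the block (0) and without it (0). These counts of 0 were fixed in advance and do not compare the settings. The smallest possible p was 0.25 with 3 pairs, 0.5 with 2 pairs, and 0.1 or 0.333 without the block. List length and the lowest enrichment listed differ between libraries, and with no counts deposited the depth limit of a single missing peak is unknown.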
